A study of Mus musculus and Homo sapiens with 10 samples.

Results

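Fgf5, Otx2, Pou3f1, Eomes, Gata4, Gata6, Sox17, Sox1, Pax6 and Cdx2 are 10 genes that are widely used to follow embryonic stem cells as they leave naive pluripotency. They were taken by symbol from the deposited gene tables, 10 of the 25899 genes in the mouse table and, in capital symbols, 10 of the 35720 genes in the human table. RNA-seq covered 8 libraries of mESCs of the E14 line, grown in 2i media with LIF, of which 4 were untreated controls and 4 had received vitC at 100 µg/ml for 24 h. Each mESC control shared its culture label, 10, 11, 35B or 35C, with 1 vitC library, so that the libraries formed 4 pairs and 2 sets, cultures 10 and 11 and cultures 35B and 35C. A further 2 libraries came from hESCs in KSR/FGF medium, labelled H9 and culture 43. Of these, 1 was an untreated control and 1 had received vitC at 100 µg/ml for 24 h. The study's methods describe both H9-NK2 cells, which carry doxycycline-inducible KLF2 and NANOG transgenes and were kept in KSR/FGF medium, and H9 cells kept in medium conditioned by fibroblasts. The labels join the name H9 with KSR/FGF medium, so which of these lines was sequenced could not be told.

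A naive mouse embryonic stem cell in 2i media is held in a ground state by LIF and by inhibitors of MEK and of GSK3. On its way to differentiation it passes through a formative and then a primed state, in which OTX2 and POU3F1 help to redirect OCT4 to new enhancers and the growth factor gene Fgf5 is switched on. Lineage genes follow: Eomes in the primitive streak and in the trophoblast, Gata4, Gata6 and Sox17 in the endoderm, Sox1 and Pax6 in the neural lineage, and Cdx2 in the trophectoderm and later in the posterior embryo. Conventional human cells in KSR/FGF medium are held in a primed state.

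The results for Cdx2 and Otx2 differed most between the mESC cultures, and the sequence before their start sites is therefore shown first. Both stretches come from RefSeq (build GRCm38.p6), are written 5′ to 3′ on the minus strand, which codes for both genes, and end at the first annotated exon of the start in question. The Cdx2 stretch lies at chr5:147307271-147307499 and the Otx2 stretch at chr14:48667645-48667894, before 1 of the 4 starts that RefSeq lists for Otx2. Capitals mark the octamer ATGCAAAT, the letters bound by POU factors such as OCT4 and POU3F1.
Cdx2: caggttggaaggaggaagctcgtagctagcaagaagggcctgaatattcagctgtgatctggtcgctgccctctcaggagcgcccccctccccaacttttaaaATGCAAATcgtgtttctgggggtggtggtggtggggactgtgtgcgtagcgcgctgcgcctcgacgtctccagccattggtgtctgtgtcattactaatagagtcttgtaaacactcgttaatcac
Otx2: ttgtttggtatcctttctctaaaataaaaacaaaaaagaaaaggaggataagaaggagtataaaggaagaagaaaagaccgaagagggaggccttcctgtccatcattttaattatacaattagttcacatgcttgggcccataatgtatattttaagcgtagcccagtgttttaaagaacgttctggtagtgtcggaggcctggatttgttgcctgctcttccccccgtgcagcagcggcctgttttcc
RefSeq windows of 250 bases before the start were given for 6 of the 10 genes, 10 windows in all. The octamer, sought on both strands after the Cdx2 sequence had been read, was in 1 of these 10 windows, that of Cdx2, and in 1.60% of all 32851 windows. The letters CTTTGAT of the TCF/LEF motif, the end point of the WNT pathway that GSK3 inhibition switches on, were in 0 of the 10 windows and in 3.21% of all windows on either strand. CpG dinucleotides were denser than in a typical window: their ratio of observed to expected number was above the median of all windows, 0.374, in 10 of 10, between 0.529 and 1.06. The 10 windows are not independent, since Otx2 and Pax6 gave more than 1 each. Those of Otx2 at chr14:48667509-48667758 and chr14:48667645-48667894 overlap.

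The mESC libraries held 3354852 to 6921305 reads over genes, recovered from the deposited values, and the hESC libraries held 15367652 and 17188555 gene counts. All 13 genes of a naive and core pluripotency list were detected in the mESC libraries, at a summed level of 5676 to 6277 reads per 1000000 gene reads (RPM). The same 13 in capitals were also detected in both hESC libraries, at a summed 654 and 650 counts per 1000000 gene counts. Some were near the limit of detection in control and vitC, NR0B1 at 1 and 1 counts, KLF2 at 3 and 3 and ESRRB at 1 and 6. Detection of this list by itself thus does not tell naive from primed cells. In the hESC libraries POU5F1, SOX2, NANOG, LIN28A, DNMT3B and ZIC2 were at 643 counts or more, and the naive markers KLF17, DPPA5 and ARGFX were at 0. Other naive markers were detected there, DPPA3 at 3 and 9 counts in control and vitC, TFCP2L1 at 7 and 9 and KLF4 at 82 and 105. Ribosomal repeats took 42.0 to 51.5% of the repeat counts in cultures 10 and 11 and 60.0 to 63.1% in cultures 35B and 35C, and the part of this difference in the results between culture sets was not tested. Since these are bulk samples, fewer cells that express a gene and less RNA per cell cannot be told apart. The labels do not say whether cultures of a set were grown independently, so that p-values measure the spread between these samples.

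Per length, the genes spanned a wide range of levels in mESCs. On the scale of reads per kilobase per 1000000 gene reads (RPKM), the mean over 8 libraries was 4.41 ± 3.99 (SD, n = 8) for Cdx2 and 3.34 ± 2.18 (SD, n = 8) for Otx2. Eomes followed at 1.69 ± 0.50 (SD, n = 8), Sox1 at 0.65 ± 0.17 (SD, n = 8) and Gata4 at 0.31 ± 0.11 (SD, n = 8). The ranges of Eomes, 1.26 to 2.78, and of Sox1, 0.42 to 0.86, did not overlap, whereas those of Sox1 and Gata4 did. Sox17, Pou3f1, Fgf5, Pax6 and Gata6 had mean RPKM values between 0.049 and 0.106, and among these 5 no neighbours in the order were apart beyond their spread. The order of the upper pair depended on the culture. In cultures 10 and 11 Cdx2 stood at 7.33 to 8.88 RPKM above Otx2 at 0.81 to 2.12, and in cultures 35B and 35C Otx2 stood at 3.79 to 6.47 RPKM above Cdx2 at 0.45 to 1.18. The plot of levels per length shows this exchange.

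**Figure D1:**
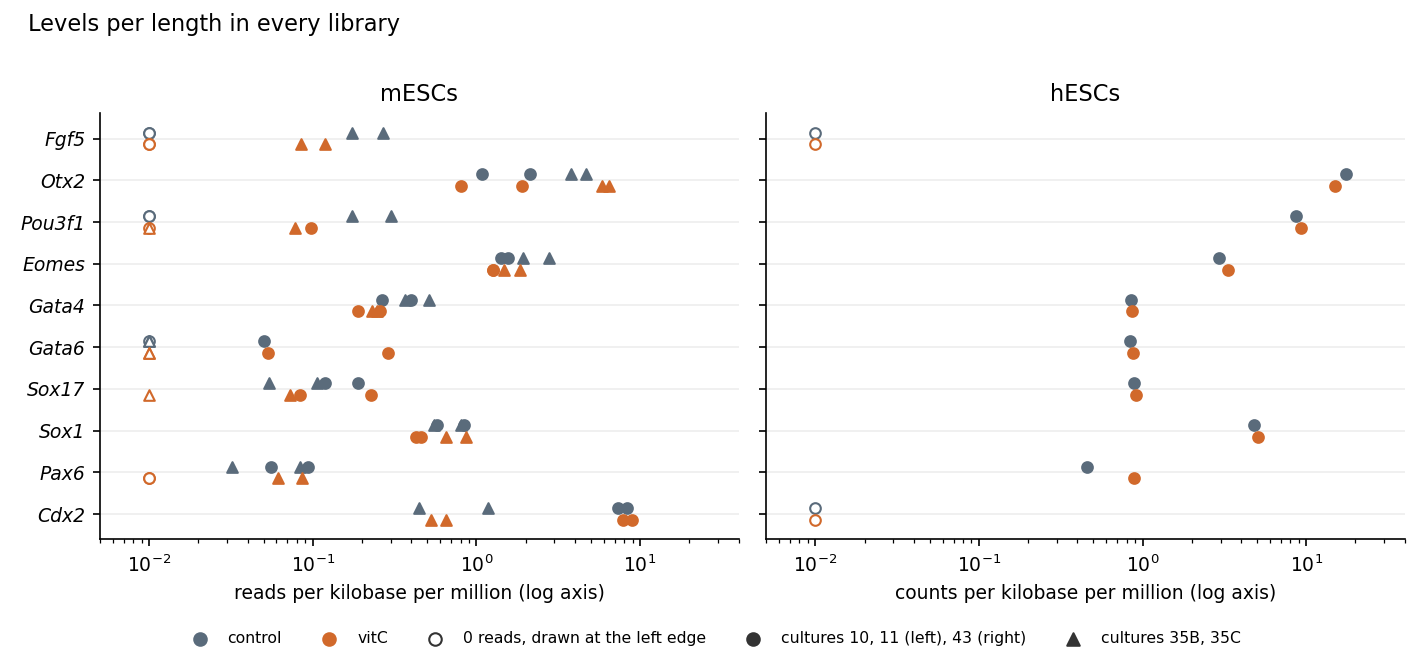
Level of each gene in each mESC library (left, 8 libraries) and hESC library (right, 2 libraries), in RPKM (counts in place of reads for hESCs) on a log axis; circles stand for cultures 10, 11 and 43, triangles for cultures 35B and 35C, grey for control and orange for vitC, and open symbols at the left edge for 0 reads. Cdx2 lies at 7.33 to 8.88 in cultures 10 and 11 and at 0.45 to 1.18 in cultures 35B and 35C, while Otx2 lies at 0.81 to 2.12 and 3.79 to 6.47.

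Differences between the culture sets were tested on the mean of each control and vitC pair, 2 pair means against 2, with limma on the deposited variance-stabilised values. This scale is close to log2 for well expressed genes and compresses differences of genes with few reads, and a value of 6.13 stands for 0 reads. Gata6 did not pass the filter of a read in at least 4 of 8 libraries, and the other 9 genes were tested. Of the 9, 3 passed the threshold of an adjusted p of 0.05, Cdx2 downwards in cultures 35B and 35C and Otx2 and Fgf5 upwards, beside 32.8% of all 14631 tested genes (14.7% higher and 18.1% lower). The share of calls among these genes was thus near that of all genes.

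Cdx2, a homeobox gene of the trophectoderm, lies on chromosome 5 at 147300805 to 147307270 (GRCm38). It had 116 reads in control 1 and 86 in control 2, and 96 in vitC 1 and 117 in vitC 2. In cultures 35B and 35C it had 12 reads in control 3 and 7 in control 4, and 4 in vitC 3 and 7 in vitC 4. All 4 libraries of cultures 10 and 11 lay above all 4 of cultures 35B and 35C, as was the case, on the deposited scale, for 16.8% of tested genes. The mean level was 18.3 ± 1.48 RPM (SD, n = 4) in cultures 10 and 11 and 1.59 ± 0.75 (SD, n = 4) in cultures 35B and 35C, an 11.5-fold difference. On the deposited scale the difference of cultures 35B and 35C from cultures 10 and 11 was -1.11 (standard error 0.06, 95% interval -1.25 to -0.97, limma adjusted p = 2.83e-07). With recovered reads summed over each pair, edgeR put the log2 fold change at -3.57 ± 0.22 (standard error), with an edgeR adjusted p of 1.68e-07. The drop was present in untreated and treated cells alike, from 17.7 to 1.84 RPM in the controls and from 19.0 to 1.33 with vitC.

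Otx2, a homeobox gene of the formative and primed states and of the anterior neural plate, lies on chromosome 14 at 48657677 to 48673819 (GRCm38). It had 20 and 33 reads in controls 1 and 2, and 13 and 33 reads in vitC 1 and 2. In cultures 35B and 35C it had 51 and 97 reads in controls 3 and 4, and 59 and 92 reads in vitC 3 and 4. Here too the sets did not overlap, with cultures 35B and 35C above, as was the case for 15.3% of tested genes. The mean level was 4.42 ± 1.89 RPM (SD, n = 4) in cultures 10 and 11 and 15.6 ± 3.60 (SD, n = 4) in cultures 35B and 35C, a 3.52-fold difference. The difference on the deposited scale was 0.67 (standard error 0.09, 95% interval 0.48 to 0.85, limma adjusted p = 0.000108), and edgeR on summed reads put the log2 fold change at 1.78 ± 0.24 (standard error), with an edgeR adjusted p of 0.000100. Gm49154, which overlaps Otx2 on the same strand, and Otx2os1, on the opposite strand, have no row of their own in the table used here, so the reads of Otx2 may include theirs. In the controls alone the mean rose from 4.80 to 12.7 RPM, and with vitC from 4.04 to 18.5.

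Fgf5, the growth factor gene that marks primed mouse cells, was close to the detection limit. It had 0 reads in each library of cultures 10 and 11, 3 reads in both controls of cultures 35B and 35C, and 1 read in both of their vitC libraries. With 8 reads in all, it passed the filter only through the 4 libraries in which it was present, so that its call (difference 0.24, standard error 0.07, limma adjusted p = 0.0177) adds no support. Pou3f1, a POU factor of the formative state, had 2 reads in cultures 10 and 11, both in vitC 1, and 12 in cultures 35B and 35C, 8 of them in control 4. The difference between its sets, 0.18 (standard error 0.07), did not pass the threshold (limma adjusted p = 0.0806).

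Eomes, a T-box factor, had 32, 30, 32 and 71 reads in the controls and 25, 27, 23 and 26 with vitC. Control 4 was the highest library by far in reads and also the deepest, and at 10.3 RPM it remained the highest by share. The difference between culture sets was 0.16 (standard error 0.06, limma adjusted p = 0.0606) on the deposited scale, and it passed the threshold in edgeR on summed reads (0.61 ± 0.20 in log2 fold change and its standard error, edgeR adjusted p = 0.0274), where 38.3% of genes did. Sox1, an early neural SOXB1 gene, had 11 to 27 reads in the 8 libraries and its sets overlapped (difference 0.08, standard error 0.07, limma adjusted p = 0.406). The reads of Sox1 may include those of an overlapping transcript on the same strand, Sox1ot, which has no row of its own in the table used here.

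The endoderm genes were near the limit of detection. Gata4 had 3 to 13 reads in the 8 libraries, Sox17 0 to 5 and Gata6 0 to 5. Gata6 was detected in 3 libraries, with 1 read in control 1, 5 in vitC 1 and 1 in vitC 2, and had 0 reads in all 4 libraries of cultures 35B and 35C. Pax6, of the later neural lineage and the eye, had 0 to 4 reads. A count of 0 allows up to 3 reads, or 0.433 to 0.894 RPM depending on the library, so that small differences in these genes were not detectable at this depth. The sets overlapped for each of them, and limma adjusted p-values lay between 0.134 and 0.709 for Gata4, Sox17 and Pax6. The values per library are drawn in the plot of RPM by culture.

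**Figure D2:**
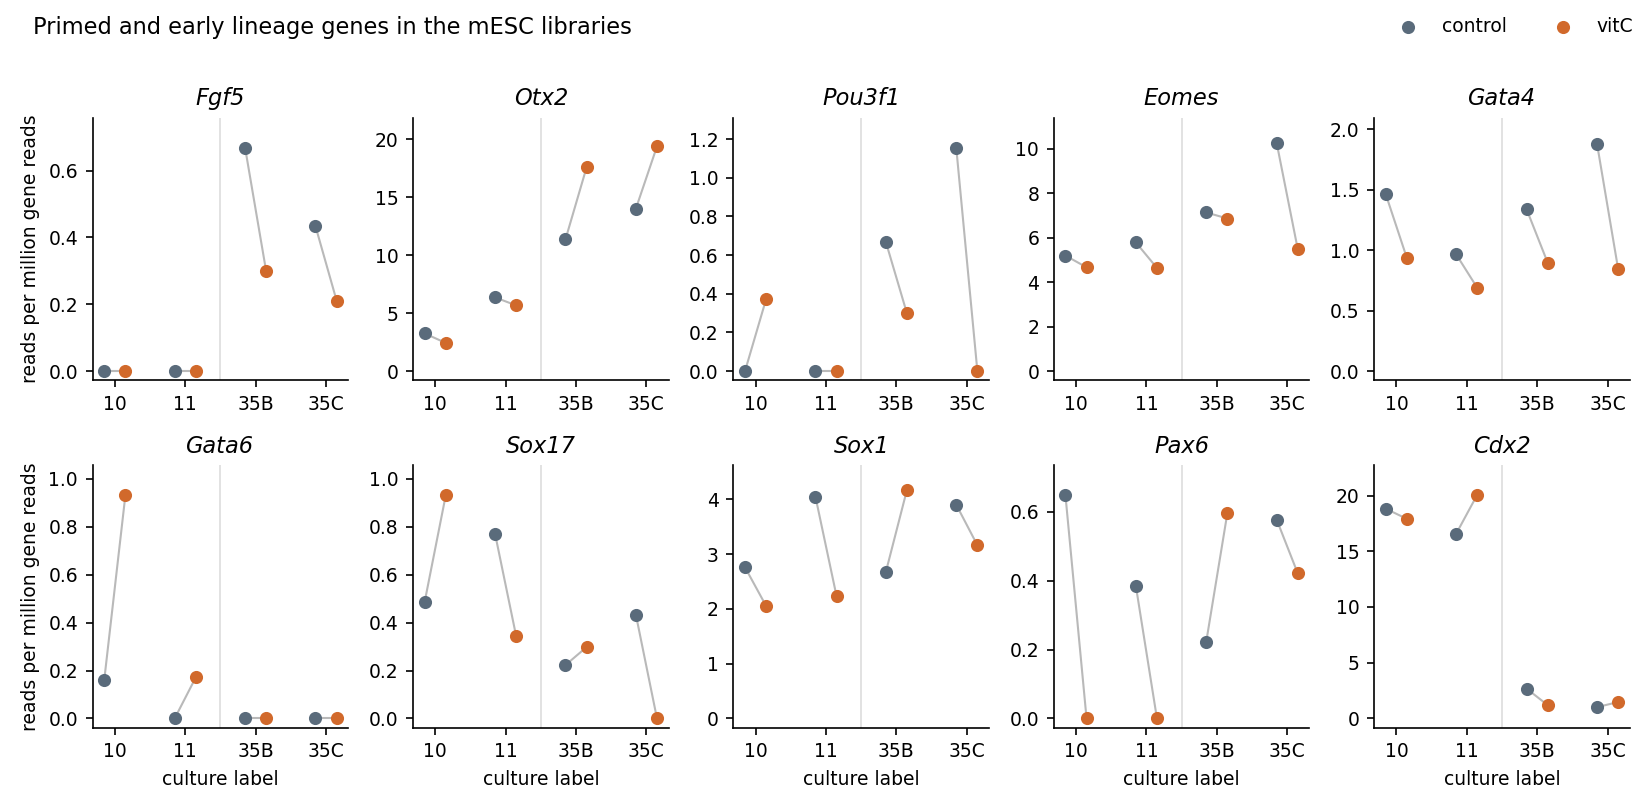
Level in RPM of each of the 10 genes in the 8 mESC libraries, by culture label, with control in grey, vitC in orange and a line joining the 2 libraries of a pair; each panel has its own linear axis. Cdx2 falls from a mean of 18.3 in cultures 10 and 11 to 1.59 in cultures 35B and 35C and Otx2 rises from 4.42 to 15.6. The lines within a pair are short beside this step for Cdx2, whereas for Otx2 in cultures 35B and 35C they run from 11.4 to 17.6 and from 14.01 to 19.4.

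The question of whether vitC moved these genes within 24 h was addressed by comparing 4 vitC with 4 control libraries. None of the 9 tested genes passed the threshold with limma, either without a term for the pair, where 0.342% of 14631 tested genes did, or with the replicate number as a block, where 10.8% did (6.36% higher and 4.44% lower). At an unadjusted p under 0.05 the count was also 0 of 9 in both fits. Of all 14631 tested genes, 7.65% had such a p without the pair term. In the blocked fit 1961 had it upwards and 1711 downwards. Of the 4 genes that edgeR could test from recovered reads, 0 had such a p without a block. In that fit 528 genes had it upwards and 379 downwards among all 11927. After the replicate number was added 1 of the 4 had such a p, Eomes, beside 1868 genes upwards and 1630 downwards among all 12337. An unadjusted p under 0.05 was thus common among all genes in both blocked fits.

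For Cdx2 the difference of vitC from control was -0.002 on the deposited scale, with a 95% interval of -0.14 to 0.13 within pairs. It was lower with vitC in 2 pairs and higher in 2, and the mean level was 9.77 ± 9.22 RPM (SD, n = 4) in controls and 10.2 ± 10.2 (SD, n = 4) with vitC. These SDs span both culture sets, within which they were 1.48 and 0.75. The interval of the vitC difference was narrow beside the difference between the culture sets, -1.11.

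Otx2 moved in opposite directions in the culture sets, by -0.09 and -0.05 in cultures 10 and 11 and by 0.29 and 0.23 in cultures 35B and 35C. The mean difference was 0.10 (95% interval -0.04 to 0.23 within pairs, limma adjusted p = 0.409 with the block). The test of the difference between the sets gave 0.33 (standard error 0.11) and failed the correction over all genes (limma adjusted p = 0.533). In this test 0.0889% of all genes and 0 of the 9 passed the threshold, and 3 of the 9 had an unadjusted p under 0.05, as did 7.34% of all genes. These were Otx2, Pou3f1 (difference -0.38, limma adjusted p = 0.599) and Pax6 (0.32, limma adjusted p = 0.649), of which Pou3f1 and Pax6 rest on 14 and 15 reads in all.

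Eomes and Gata4 were lower with vitC in 4 of 4 pairs, as were 14.4% of all tested genes. Eomes fell short of the threshold at -0.11 (95% interval -0.25 to 0.02 within pairs, limma adjusted p = 0.275 with the block), with means of 7.09 ± 2.26 RPM (SD, n = 4) in controls and 5.41 ± 1.04 (SD, n = 4) with vitC. By pair, Eomes differed by -0.04, -0.09, -0.01 and -0.31, the last from control 4, its highest library. With edgeR and the block its log2 fold change was -0.40 ± 0.19 (standard error), with an edgeR adjusted p of 0.171. Gata4 had 9, 5, 6 and 13 reads in the controls and 5, 4, 3 and 4 with vitC. On the deposited scale its 4 vitC values lay below all 4 control values, which held for 1.98% of tested genes, and its difference of -0.10 (95% interval -0.24 to 0.03 within pairs) did not pass the threshold (limma adjusted p = 0.363 with the block).

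The remaining genes gave differences between -0.12 and -0.05 with limma adjusted p-values of 0.366 to 0.743 with the block. Sox1 was lower in 3 pairs and higher in 1, with 17, 21, 12 and 27 reads in the controls and 11, 13, 14 and 15 with vitC. Pax6 had 4, 2, 1 and 4 reads in the controls and 0, 0, 2 and 2 with vitC, so that no read was seen in the vitC libraries of cultures 10 and 11. The plot of both differences sets their intervals side by side.

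**Figure D3:**
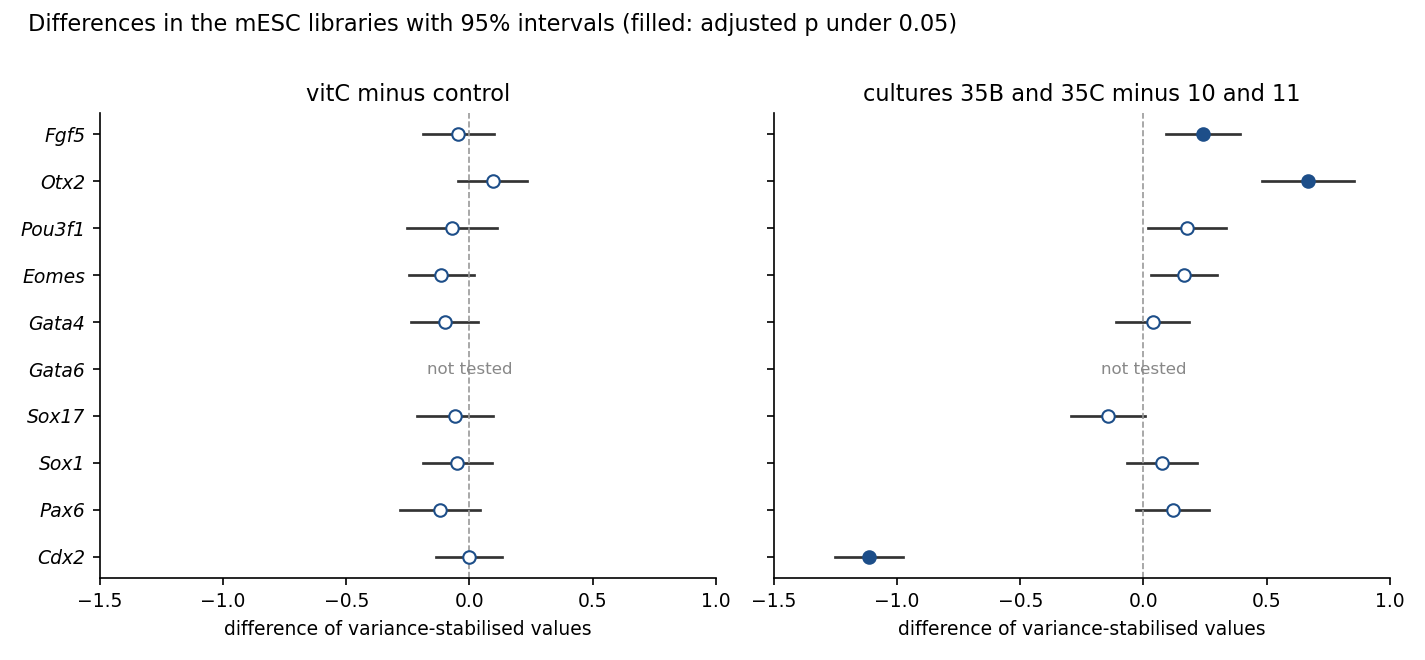
Difference of each gene on the deposited variance-stabilised scale between vitC and control (left, replicate block) and between cultures 35B and 35C and cultures 10 and 11 (right, 4 pair means), with 95% intervals from limma; filled points have an adjusted p under 0.05 and Gata6 was not tested. No interval on the left excludes 0, and on the right Cdx2 lies at -1.11 and Otx2 at 0.67.

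Lists of other genes of the same states and lineages were read for comparison. Without the block, limma called 0 of 61 tested list genes for vitC, with 8 at an unadjusted p under 0.05 (7.65% of all genes were), and edgeR called 0 of 41 (0.319% of all genes). With the block limma called 18 of 61, beside 10.8% of all genes, and edgeR 19 of 45, beside 14.8%. Among the naive and core genes 3 of 13 rose with vitC in the blocked fit and 4 fell. Those with the smallest adjusted p were Nanog, a core factor (-0.25, limma adjusted p = 0.000647), Dppa3, a germline and naive marker (0.30, limma adjusted p = 0.00363), Klf5 (0.17, limma adjusted p = 0.00680) and Pou5f1, which encodes OCT4 (-0.12, limma adjusted p = 0.0221). Of the formative and primed list 1 of 11 rose, Grhl2, and 2 fell, Lin28b and Zic2, and the list's median difference was 0.005, beside -0.002 for all genes. For Otx2, Fgf5 and Pou3f1 there was thus neither a call of their own nor a shared direction in that list.

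In the primitive streak and mesoderm list 2 of 7 tested genes fell with vitC in the blocked fit, Lefty2 (-0.74, standard error 0.07, limma adjusted p = 1.49e-06) and Lefty1 (-0.50, standard error 0.08, limma adjusted p = 0.000409), inhibitors of NODAL signalling that NODAL itself switches on. Lefty2 had 83, 335, 166 and 420 reads in the controls and 22, 103, 63 and 143 with vitC. The other 5 tested genes of the list were not called, with differences from -0.15 (Nodal, lower in 3 pairs) to 0.09 (Gsc, higher in 3 pairs). Eomes was lower in all 4 pairs, as were 14.4% of all tested genes, without passing the threshold. Whether Eomes, Lefty1 and Lefty2 share a cause was not tested. In the endoderm list 2 of 8 rose, Pdgfra (0.23) and Hnf4a (0.22), in the neural list 1 of 6 fell, Ncam1 (-0.31), and in the trophoblast list 2 of 9 rose, Tfap2c (0.26) and Tfap2a (0.19). The member genes of these lineages, Gata4, Sox17, Sox1, Pax6 and Cdx2, were not called in any direction. Of the fibroblast list 0 of 5 and of the 2-cell-like list 1 of 2, Zscan4d (0.24), were called.

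Between the culture sets limma called 30 of the 61 list genes, beside 32.8% of all tested genes. The trophoblast list did not move with Cdx2 as a whole: of 9 tested genes 2 were lower in cultures 35B and 35C, Tfap2a (-0.73) and Krt7 (-0.21), and 3 were higher, Krt18 (0.26), Tead4 (0.23) and Krt8 (0.20). Elf5, a defining trophoblast gene, had 0 reads in all 8 libraries. The summed level of the 11 trophoblast genes in the table was 138 to 157 RPM in cultures 10 and 11 and 127 to 151 in cultures 35B and 35C, and its part in the Cdx2 difference was not tested.

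The formative and primed list did not move with Otx2 either. Of 11 tested genes 2 were higher in cultures 35B and 35C, Tcf15 (0.31) and Lin28b (0.22), and 4 were lower. Lef1, a transcription factor of the WNT pathway, had the largest fall (-1.40, standard error 0.08, limma adjusted p = 1.93e-07), followed by Grhl2 (-0.52) and Wnt8a (-0.41). Lef1 had 303 and 193 reads in controls 1 and 2 and 44 reads in both controls 3 and 4, a step in the same direction as that of Cdx2. In the endoderm list 3 of 8 were lower, Hnf4a (-0.59), Dab2 (-0.50) and Pdgfra (-0.24), and 1 was higher, Sox7 (0.27). In the neural list Tubb3 (0.56) and Ncam1 (0.52) were higher and Sox21 (-0.63) was lower, and in the streak and mesoderm list Nodal (0.28) was higher.

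Naive genes differed between the culture sets in both directions, 3 of 13 being higher in cultures 35B and 35C and 5 lower. Dppa3 (-0.96, limma adjusted p = 2.06e-06) and Nr0b1 (0.64, limma adjusted p = 6.80e-06) led, followed by Pou5f1 (0.42, limma adjusted p = 0.000256) and Sox2 (-0.35, limma adjusted p = 0.00168). Fibroblast markers were low, at a summed 7.32 to 16.4 RPM in cultures 10 and 11 and 12.5 to 18.3 in cultures 35B and 35C, with Dcn at 0 throughout, yet Thy1 was higher (0.84) and Col1a2 (-0.96) and Pdgfrb (-0.28) were lower in cultures 35B and 35C. Of the 2-cell-like list 0 of 2 tested genes passed the threshold. The vitC difference between the sets was called for 0 of the 61 list genes by limma, with 12 at an unadjusted p under 0.05, beside 7.34% of all tested genes.

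The genes whose deposited values ran most alike with those of Cdx2 over the 8 libraries were Exoc4 (Pearson r = 0.995), Hsp90ab1 (0.995) and Rprd2 (0.994), among 9457 genes with a mean of at least 50 reads. Hsp90ab1, which encodes a heat shock chaperone, had 25190 or more raw reads in the 4 libraries of cultures 10 and 11. In the others it had 23847, in control 4, the deepest library, or fewer. These reads are not scaled to depth. The 8 libraries share the step between the culture sets. After each set's mean had been subtracted the first 3 genes were others, Glcci1 (r = 0.96), Pigs (0.94) and Thoc3 (0.93). Without the subtraction Thoc3 ran the opposite way (r = -0.81) and Pigs was at 0.15. The correlations given for Cdx2 and for Otx2 are the highest of all genes compared over only 8 libraries. Values this high can arise by chance, and no p was computed. Otx2, whose mean of 49.8 reads was just under this minimum and which was added after its values had been seen, ran most like Raly (r = 0.99), Stoml1 (0.99) and Shmt2 (0.99) over all libraries, and like Sdccag3 (0.98), Pck2 (0.97) and Sema5b (0.97) within sets.

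In hESCs each condition had 1 library, so no test was possible and the intervals given here cover counting error only. The labels give polyA RNA for the hESC libraries and total RNA for the mESC libraries, and together with the species and media this keeps the levels of both tables from being compared by a test. Of the 10 genes 8 were detected and FGF5 and CDX2 had 0 counts in both libraries. This allows up to 3 counts, or 0.195 counts per 1000000 gene counts (CPM) in the control and 0.175 with vitC, taking each count as 1 fragment. CFAP299 and SOX1-OT, which overlap FGF5 and SOX1 on the same strand, have no row of their own in the table used here. The counts of SOX1 may therefore include those of SOX1-OT.

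Per length, OTX2 was the highest of the genes at an RPKM, here from counts, of 17.6 in the control and 15.05 with vitC. POU3F1 followed at 8.60 and 9.30, SOX1 at 4.77 and 5.05 and EOMES at 2.94 and 3.31. SOX17, GATA4 and GATA6 lay close together, between 0.839 and 0.888 in the control and between 0.863 and 0.918 with vitC. PAX6 was at 0.456 in the control, the lowest of the detected genes, and at 0.891 with vitC. OTX2, POU3F1, SOX1 and EOMES kept this order in both libraries.

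With vitC, PAX6 was higher by at least 1.5-fold, as were 2.82% of the 13219 genes with at least 50 counts in both libraries together, and 1.94% were lower by as much. PAX6, at chromosome 11 from 31784779 to 31817961 (GRCh38), had 75 counts in the control and 164 with vitC, or 4.88 and 9.54 CPM. The ratio was 1.96-fold, a log2 ratio of 0.97 with an exact 95% interval of 0.56 to 1.38. Gene counts in the hESC libraries were 1.77 and 1.81 times the aligned library size given with the repeat counts, against 0.711 to 0.832 times in the mESC libraries, and odd numbers made up 74.0 and 73.2% of their counts of 12 or fewer against 55.2 to 57.6% in mESCs. Whether a fragment was counted more than once is thus unclear, and the interval was also computed from halved counts, which gave 0.38 to 1.54. ELP4, which overlaps PAX6 on the opposite strand, had 161 and 240 counts, and its log2 ratio was 0.41 (interval 0.12 to 0.71, or -0.01 to 0.83 with halved counts). The strand setting of the counting is not given in the sources used here, and the part of ELP4 in the PAX6 counts was not tested.

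OTX2 was lower with vitC, with 918 counts in the control and 879 in the deeper vitC library. Its log2 ratio was -0.22 with an exact 95% interval of -0.36 to -0.09, or -0.41 to -0.03 with halved counts, a change of less than 1.5-fold. POU3F1 had 392 and 474 counts and its log2 ratio was 0.11 (interval -0.08 to 0.31). EOMES had 165 and 208 counts at a log2 ratio of 0.17 (interval -0.13 to 0.48). SOX1 had 334 and 396 counts at a log2 ratio of 0.08 (interval -0.13 to 0.30). GATA4 (51 and 58 counts), GATA6 (49 and 57) and SOX17 (32 and 37) had log2 ratios between 0.02 and 0.06. For these 6 genes the interval held 0, and for the 3 endoderm genes it also held a 1.5-fold change in either direction, apart from the lower bounds of GATA4 and GATA6.

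**Figure D4:**
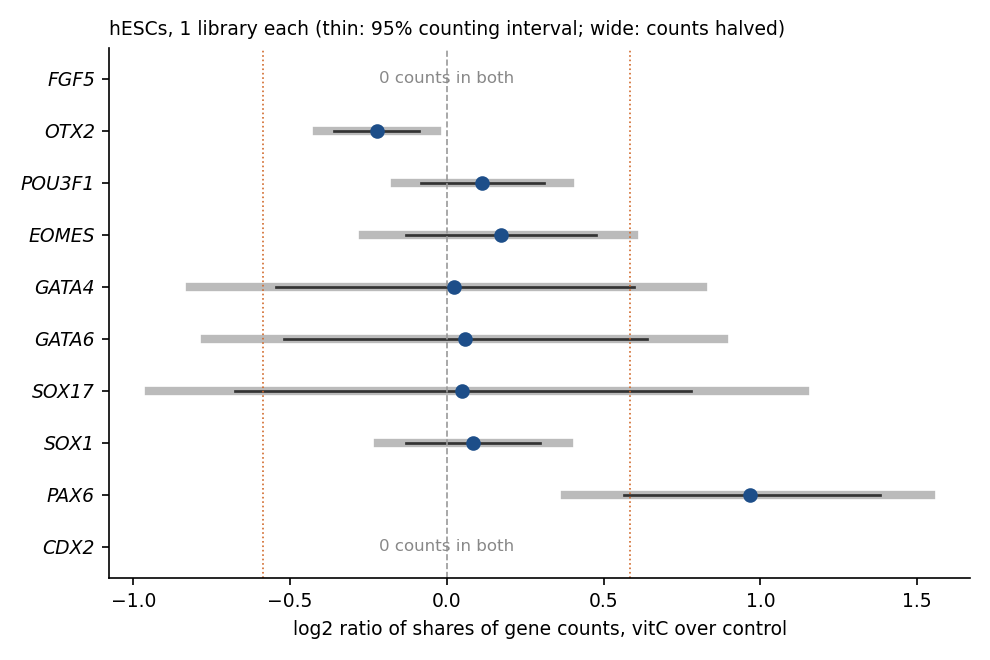
Log2 ratio of the share of gene counts, vitC over control, for each gene in the 2 hESC libraries; thin bars are exact 95% intervals that cover counting error only, wide grey bars the same from halved counts, and dotted lines mark 1.5-fold. PAX6 lies at 0.97 and OTX2 at -0.22, with intervals that exclude 0, and FGF5 and CDX2 had 0 counts.

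Among the genes of the other lists, TCF15 (formative, log2 ratio 0.99), MIXL1 (streak, 0.95), HNF4A (endoderm, 0.81) and NODAL (streak, 0.67) were higher by at least 1.5-fold with vitC in hESCs, and TFAP2A (trophoblast, -0.68) was lower. Of all 13219 genes with at least 50 counts, 2.82% were higher and 1.94% lower by as much. The list genes with at least 50 counts were not tallied, so these names give no share. With halved counts the interval of HNF4A, which had 28 and 55 counts, held 0 (-0.14 to 1.88), and those of TCF15 (0.12 to 1.96), MIXL1 (0.13 to 1.82), NODAL (0.39 to 0.96) and TFAP2A (-1.18 to -0.19) did not. Of the neural list 0 genes with at least 50 counts passed this fold. SOX21 had a log2 ratio of 0.07 and NES of -0.05. LEFTY1 (0.32) and LEFTY2 (0.28) were higher with vitC by less than 1.5-fold, with intervals of 0.25 to 0.39 and 0.22 to 0.34. They were named after their values were seen. Other list genes below this fold also had intervals that excluded 0, in both directions, among them NANOG (0.24) and TFAP2C (-0.36). Genes of the fibroblast list were mixed in the hESC libraries. COL1A1 was at 18164 and 18881 counts and THY1 at 1933 and 2202, while DCN was at 0 and LUM at 7 and 17. Bulk counts do not tell which cells they came from. The 9 genes of the list summed to 1813 CPM in the control and 1693 with vitC. Their part in the levels of the 10 genes was not tested.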

How the data were processed

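RNA-seq gene and repeat tables of 8 mESC and 2 hESC libraries were used. Per the methods, RNA was depleted of rRNA, while the labels give polyA RNA for hESCs. Libraries were made with a directional kit, and reads were mapped to mm10 or hg38 and counted with the Map and Count tools of SQuIRE. The submitters' processing notes also name Trim Galore, HISAT2 and DESeq2, with no role. Versions and the strand setting of gene counting are not given in the sources used here. The gene values deposited by the authors are variance-stabilised, on a scale close to log2. The repeat tables deposited by the authors hold expected counts per subfamily, used here only for the ribosomal share, with the aligned library size. A further 7 columns of per-sample values were not used.

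Whole reads were recovered by inverting the parametric transformation, with the smallest step above 0 in a library taken as 1 read. Within 0.01, 100% of 116385 mESC and of 38034 hESC values above the lowest came out whole. Levels (RPM) use the total of recovered gene reads, and lengths are unions of exons over GENCODE basic transcripts. Genes with a read in at least 4 of 8 mESC libraries entered limma 3.58.1 (lmFit, eBayes with trend) in R 4.3.3 with Benjamini-Hochberg adjustment over 14631 genes at a threshold of 0.05. As alternatives, recovered reads were tested with edgeR 4.0.16 (quasi-likelihood) and DESeq2 1.42.0. The tests were checked on simulated data, for which no settings or results are given here. That check is not used to judge how well changes in genes with few reads would be detected, with or without the block. Depth was 3354852 to 6921305 gene reads in mESCs. The hESC ratios carry exact binomial 95% intervals. Without molecular identifiers reads are no independent molecules, and intervals and floors cover counting error only.

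Groups follow the labels. Control and vitC libraries of the same number share a culture label, which is where the pairing comes from. The correlation of their deviations from group means was 0.63 to 0.76, against 0.57 to 0.66 for other control and vitC libraries of one culture set, so these values do not show the pairing by themselves. The main vitC design has no block, as the methods name none.

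The 10 genes and the lists were chosen with earlier results of these data known. Named besides the 10 were up to 4 called genes per list by adjusted p and the 3 genes most correlated with each of the 10 that had a mean of at least 50 reads. The rule also asked for the 2 most expressed genes of a list with no call, which are not given. Krt7, Lin28b between culture sets, Elf5, ELP4, LEFTY1, LEFTY2, the hESC list genes and the neighbours of Otx2 were named after their values were seen. So were Nodal and Gsc in the vitC comparison. Alternatives covered filters, quantile normalization, the trend, count tests, subsets and leaving out libraries. Halved hESC counts and edgeR without a filter on summed reads were chosen after seeing the data. Antisense genes overlap OTX2 (OTX2-AS1, 0 to 4 counts) and GATA6 (GATA6-AS1, 1 to 17 counts).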

Additional observations from a re-analysis of the deposited data

Results flagged for a closer look

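Gata6 in the first mESC control (culture 10) stood apart from the other 3 controls on the deposited scale, at 6.29 against the lowest value in each of them. It rests on 1 read, and since the other 3 controls had 0 reads, any single read would have set it apart. The rate of about 1 in 20 groups that chance gives this test does not apply to such low counts.

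Otx2 was lower with vitC in both pairs of cultures 10 and 11 and higher in both pairs of cultures 35B and 35C. The difference between the sets was 0.33 on the deposited scale (standard error 0.11), and it failed the correction over all genes (limma adjusted p = 0.533).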

How the results depend on the processing

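Cdx2 and Otx2 passed the threshold between culture sets under all alternatives run, with limma differences of -1.17 to -1.05 and 0.50 to 0.83. Fgf5 lost its call with vitC libraries only (limma adjusted p = 0.129) and without the pair of replicate 1, 2 or 3, and DESeq2 gave it no adjusted p. Eomes was called after quantile normalization (0.20) and by edgeR, Pou3f1 after quantile normalization (0.21) and in controls only (0.37), and Pax6 with vitC only (0.28). In controls only, Pou3f1 had 0 reads in cultures 10 and 11 against 3 and 8 reads in cultures 35B and 35C. With vitC only, Pax6 had 0 reads against 2 and 2. Like that of Fgf5, these calls rest on a few reads against none and add no support. For vitC no alternative called any of the 10 genes, the replicate block included, and signs of small differences changed. Cdx2 was at 0.00178 after quantile normalization, 0.127 and 0.122 in edgeR with and without filter, 0.0791 in edgeR with the replicate block, 0.0741 in DESeq2 and 0.0580 in replicates 1 and 2 only, where Otx2 was at -0.0691 and Pou3f1 at 0.12. In replicates 3 and 4 only, Sox1 was at 0.0422 and Pax6 at 0.0375. Leaving out 1 library gave -0.218 to 0.201 for Cdx2, -0.0546 to 0.29 for Otx2, -0.0929 to 0.0127 for Fgf5, -0.13 to 0.00722 for Pou3f1 and -0.12 to 0.00995 for Sox17. Between sets, Sox1 was at -0.0150 and Pax6 at -0.0388 in controls only, and Pou3f1 at -0.0128 with vitC only. For the vitC difference between sets, leaving out a pair gave -0.26 to 0.0231 for Cdx2, -0.25 to 0.0516 for Eomes and -0.25 to 0.0334 for Sox17. Of all genes, the vitC comparison called 50, against 1581 with the replicate block, 1832 in edgeR with the block, 131 in DESeq2, 28 with a read in all 8 libraries, 175 in replicates 1 and 2, 4 in replicates 3 and 4 and 19 to 32 without any 1 library. Between sets 4799 became 2471 in controls only, 2827 in DESeq2 and 1465 to 4546 without 1 pair (1465 without replicate 1, 1854 without replicate 2). The 13 calls of limma for the vitC difference between sets became 0 without the replicate block (223 higher and 378 lower at an unadjusted p under 0.05), 0 without filter (468 and 677) and 0 without trend (390 and 665), against 11 in edgeR. They became 0 without replicate 1 (302 and 428) or 2 (402 and 424), 6 without replicate 3 and 39 without replicate 4. PAX6 in hESCs was at 0.12 on the deposited scale, which compresses low counts. Causes were otherwise not tested.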
